A study of Mus musculus with 6 samples.

Results

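The genes described here are 39 genes of striated muscle, among them Dupd1, a dual-specificity phosphatase, and Tmod4, the tropomodulin of skeletal muscle. They were measured on 1-colour Agilent arrays in cochleae of female mice aged 7 months. The groups were 3 samples of Fabp7 (+/+) mice, called wild type, and 3 of Fabp7 (-/-) mice, called knockout, which lack a brain-type fatty acid binding protein in all cells. Each sample pooled 4 cochleae of 2 mice and kept the otic capsule, the bone around the cochlea, while vestibular tissue was removed. The members are a list of known muscle genes, to which Dupd1 and Tmod4 were added, chosen by their measured difference between knockout and wild type on these same arrays. The difference between the genotypes is therefore a description for these 2 genes, without a test. All 39 genes had a probe, 53 probes in all, and a gene was kept when a probe exceeded the 40th percentile of raw signal of its array on 3 or more of the 6. This held for 35 genes, each represented by its brightest probe, out of 27189 features tested on the arrays (16143 named genes and 11046 probes without a name).

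A striated muscle fibre is built of sarcomeres, in which thick filaments of myosin pull on thin filaments of actin that are anchored at the Z disc. Calcium released from the sarcoplasmic reticulum binds troponin C and lifts the block on the thin filament. Fast and slow fibres use different genes for myosin, the troponins and the calcium pump, and the slow forms of several of these are also those of the heart. The cochlea has no skeletal muscle of its own, whereas the tensor tympani and the stapedius of the middle ear are skeletal muscles that lie close to its bone.

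The labels were checked with Fabp7, whose raw signals were 2674, 1554 and 1860 on wild-type arrays 1 to 3 and 10.9, 3.75 and 3.43 on knockout arrays 1 to 3. The 75th percentile of raw signal, used to scale the arrays, ranged from 581.06 to 677, and the lowest raw signal of an array was 2.70 to 3.49. Of 11 genes of hair cells and the cochlear lateral wall, 10 passed the filter, all but Kcne1, a potassium channel subunit. Knockout array 2 and wild-type array 1 stood apart in the muscle genes, as described below, so that counts over the members are given with and without them. In tissue of many cell types, fewer fibres and less RNA per fibre cannot be told apart.

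Dupd1 and Tmod4 are shown first with the start regions of their genes, beside those of Tnnc2 and Tnnc1, the fast and the slow form of troponin C, which parted from each other on the arrays. Each window runs from 250 bases before to 50 bases after the gene start and was taken from RefSeq on GRCm38.p6, at chr14:21714527-21714826, minus strand (Dupd1), chr3:95124264-95124563, plus strand (Tmod4), chr2:164779685-164779984, minus strand (Tnnc2) and chr14:31208062-31208361, plus strand (Tnnc1). Capitals mark a match to the binding consensus of MEF2, a transcription factor of muscle.
Dupd1: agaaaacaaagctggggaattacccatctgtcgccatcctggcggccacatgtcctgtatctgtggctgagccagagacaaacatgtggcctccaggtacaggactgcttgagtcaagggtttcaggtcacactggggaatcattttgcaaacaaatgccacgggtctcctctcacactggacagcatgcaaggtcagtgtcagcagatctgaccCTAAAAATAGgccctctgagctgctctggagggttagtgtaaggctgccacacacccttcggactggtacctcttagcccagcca
Tmod4: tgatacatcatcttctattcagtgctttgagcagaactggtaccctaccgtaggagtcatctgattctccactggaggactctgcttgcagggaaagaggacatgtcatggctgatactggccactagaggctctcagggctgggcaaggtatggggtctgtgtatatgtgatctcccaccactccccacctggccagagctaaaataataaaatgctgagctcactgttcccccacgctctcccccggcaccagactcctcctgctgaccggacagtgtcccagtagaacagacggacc
Tnnc2: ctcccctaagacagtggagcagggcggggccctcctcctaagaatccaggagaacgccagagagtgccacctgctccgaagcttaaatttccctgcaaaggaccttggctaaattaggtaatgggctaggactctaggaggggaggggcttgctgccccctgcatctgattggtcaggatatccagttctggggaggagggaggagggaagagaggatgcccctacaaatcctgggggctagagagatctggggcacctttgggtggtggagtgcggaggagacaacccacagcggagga
Tnnc1: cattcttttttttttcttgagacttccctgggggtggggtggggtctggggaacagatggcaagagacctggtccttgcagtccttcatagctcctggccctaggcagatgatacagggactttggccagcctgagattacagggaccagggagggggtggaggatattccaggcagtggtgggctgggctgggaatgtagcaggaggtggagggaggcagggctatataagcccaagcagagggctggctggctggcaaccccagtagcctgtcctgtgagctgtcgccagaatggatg
The MEF2 match of Dupd1 lay 35 to 26 bases before the start. Such a match was found in 0.557% of the 32851 windows in the table, and in 2 of the 33 windows of the 28 members it holds, those of Dupd1 and Ttn. The sequence CAGCTG, an E-box that myogenic factors can bind and that reads the same on both strands, was in 16 of the 33 windows against 16.3% of all windows, and in none of the 4 printed here. The sequence TATAAA, searched on both strands, was in 6 of the 33 against 13.6% of all, and the CArG box of serum response factor in 5 of the 33 against 1.63%. CAGCTG is a special case of the wider E-box CANNTG, which 72.3% of all windows hold. A match is a description of letters in a window, not a site of binding.

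Dupd1 had signals, as raw intensity, of 260, 277 and 271 on the wild-type arrays against 441, 468 and 420 in knockout. The 3 knockout arrays lay above the 3 wild-type arrays, and within each genotype the arrays were nearly level. On the scale used for all comparisons, log2 of the raw signal minus that of the 75th percentile of its array, the mean of Dupd1 was −1.32 ± 0.06 in wild type (SD, n = 3) and −0.45 ± 0.04 in knockout (SD, n = 3). The difference was 0.87 ± 0.07 (SE), or 1.82-fold, by a single probe. Its SD between arrays of a group, pooled over the genotypes, was 0.05, below that of each of the other 33 members with a measurement other than Tmod4, which ranged from 0.13 to 2.70. Among all features, 7.75% had a smaller SD. The choice of Dupd1 and Tmod4 by their difference between the genotypes can favour a small SD.

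Tmod4, whose protein caps the slow-growing end of thin filaments, had signals, as raw intensity, of 427, 381 and 435 on the wild-type arrays against 492, 662 and 534 in knockout. The groups did not overlap here either, but knockout array 2 stood above the other knockout arrays. Scaled, the wild-type mean was −0.70 ± 0.10 (SD, n = 3) and the knockout mean −0.11 ± 0.20 (SD, n = 3), which differ by 0.58 ± 0.12 (SE), or 1.498-fold. The pooled SD was 0.16, and 3 of the other 33 members had a smaller one. Among all features 54.2% had a smaller SD, so that the spread of Tmod4 was low only beside the other members.

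**Figure D1:**
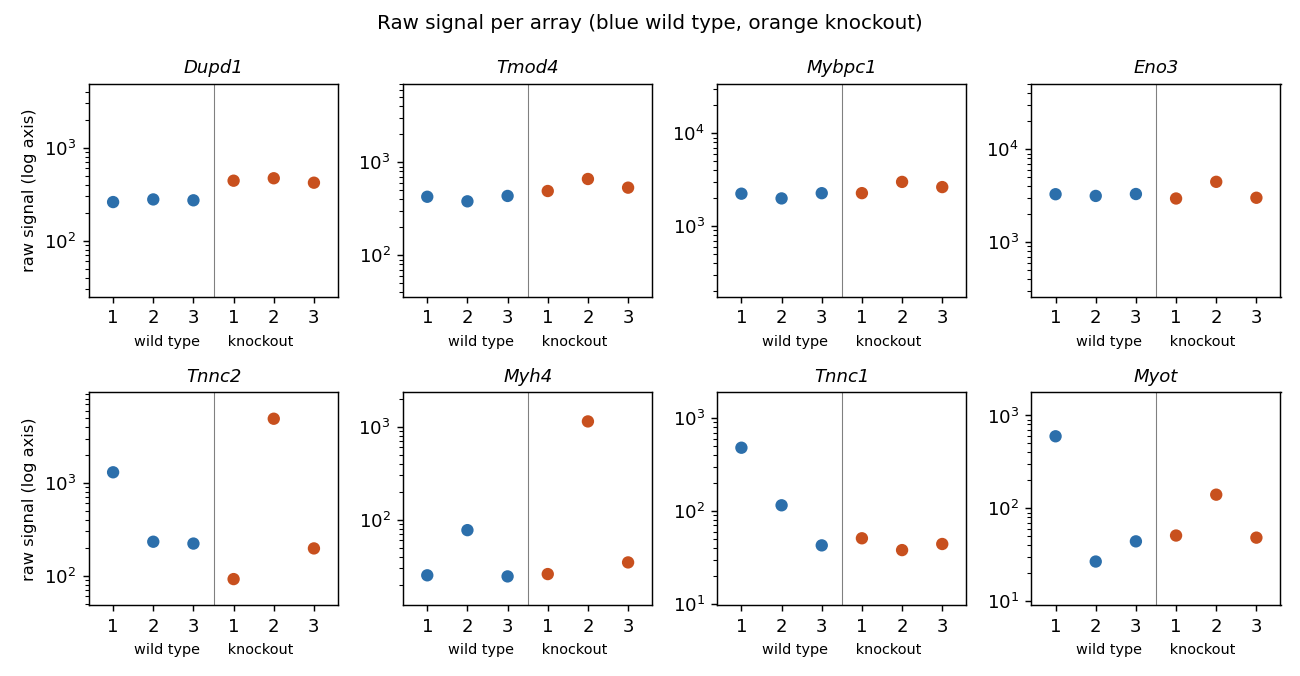
Raw signal (log axis) of 8 muscle genes on each of the 6 arrays, with wild type in blue and knockout in orange. Dupd1 and Tmod4 lie higher on all 3 knockout arrays, whereas Tnnc2 and Myh4 reach 4899 and 1144 on knockout array 2 alone, and Tnnc1 and Myot are highest on wild-type array 1.

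The other 33 members past the filter did not share this pattern. limma called 0 of them at an adjusted p under 0.05 (0% of all features were called). Fabp7 itself, at −8.42 ± 0.47 (SE), was not called either. Its limma adjusted p of 0.061 was the lowest of any feature. Of the 33 members, limma placed 1 at an unadjusted p under 0.05, Mybpc1, which was higher. At that level 3.04% of all features were higher and 2.66% lower. The differences of the 33 members between knockout and wild type ran from −1.45 (Tnnc1) to 1.79 (Myl1). Their median was 0.24 against 0.03 over all features, and 26 lay above 0 (60.7% of all features did). The scaled signals of the groups were apart in 3 members, Myl1, Mybpc1 and Pygm, all higher in knockout, where 8.08% of all features were apart in that direction and 4.27% in the other. In 32 of the 33 the widest range within a genotype exceeded the difference between the genotypes, as it did in 93.9% of all features. The 95% interval of a difference reached 1.12 to either side in the median of these members, against 0.28 over all features, so that for many of them a change of several fold would not have been detectable.

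**Figure D2:**
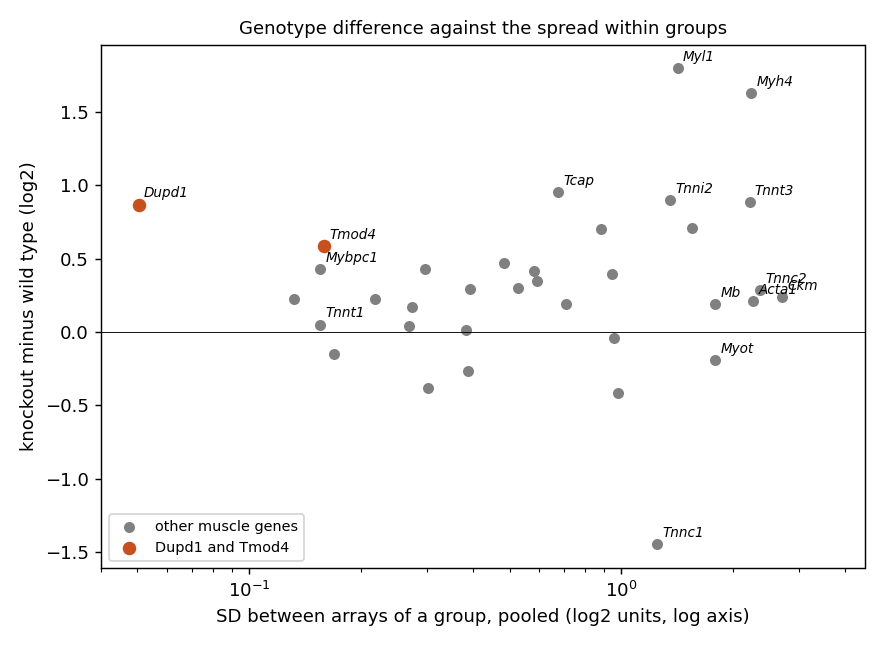
Difference between knockout and wild type (log2) against the pooled SD between arrays of a group (log2 units, log axis) for the 35 muscle genes past the filter, with 1 point per gene. Dupd1, at an SD of 0.05, and Tmod4, at 0.16, have little spread for their difference, which their choice can favour. Ckm, Acta1 and Tnnc2 have an SD over 2 and differences near 0.

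Most of the variation of these genes lay between arrays of the same genotype. Of the 33 members, 25 were highest on knockout array 2, where 15.6% of all features were highest. The 5 members highest on wild-type array 1, the 2 on wild-type array 2 and the 1 on knockout array 1 stood against 21.01%, 14.3% and 27.03% of all features, so that these counts did not exceed the background. Each array was also set against the mean of the other 2 of its genotype. On knockout array 2, 16 members exceeded that mean by over 1 on the log2 scale, where 0.401% of all features did. On wild-type array 1, 10 members did, against 1.19% of all features. These sets were in part the same, with 8 members up on both arrays, 8 on knockout array 2 alone, 2 on wild-type array 1 alone and 15 on neither. The muscle score, the mean over the 33 members of the scaled signal minus the gene's mean over the arrays, was 0.37, −0.26 and −0.55 in wild type against −0.56, 1.29 and −0.29 in knockout. The wild-type mean was −0.15 ± 0.47 (SD, n = 3) and the knockout mean 0.15 ± 1.00 (SD, n = 3), a difference well within the spread. Without knockout array 2 the difference of the score was −0.24, and 12 of 31 members lay above 0, with a median of −0.11. Without wild-type array 1 the difference was 0.53, with a median of 0.43, and without knockout array 1 it was 0.65, with a median of 0.56. Without both arrays, a choice made after seeing the data, the score differed by −0.02, 16 of 31 members lay above 0 and the median was 0.01.

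**Figure D3:**
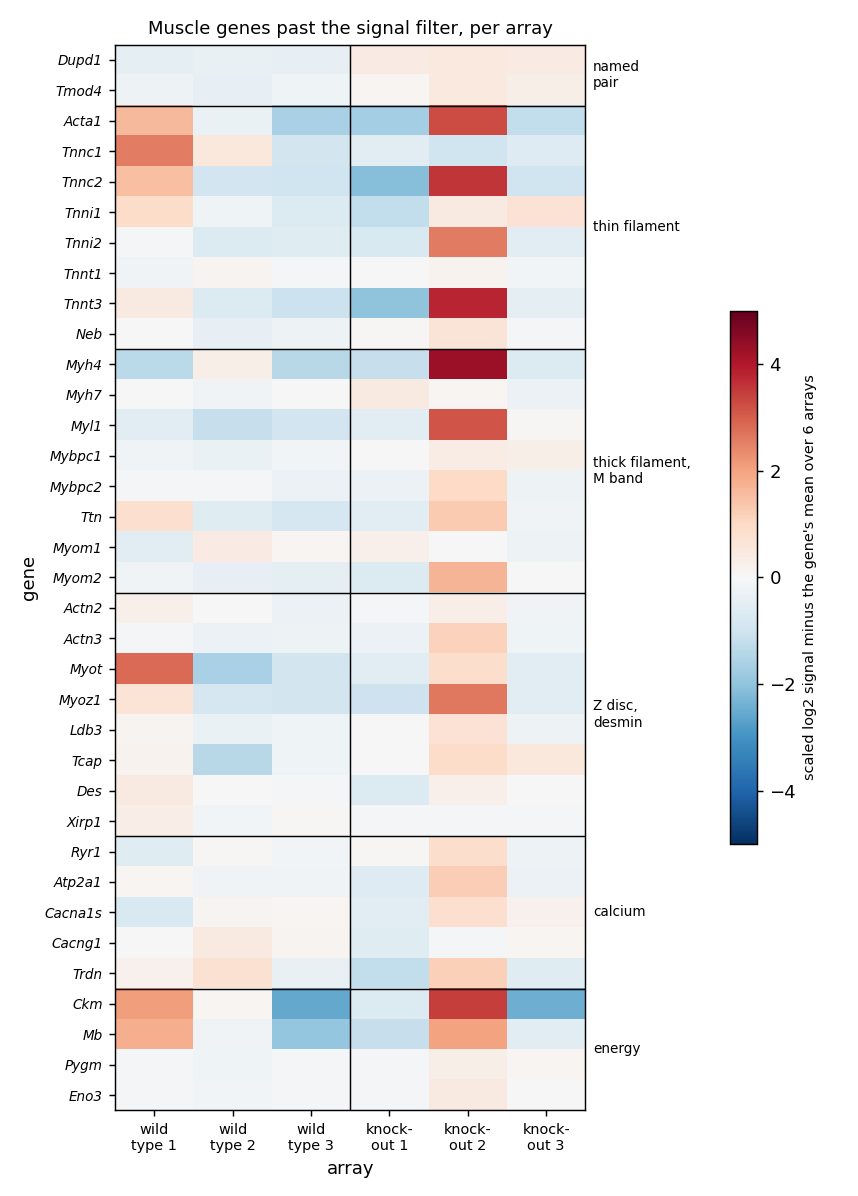
Scaled log2 signal minus the gene's mean over the 6 arrays (colour) for the 35 muscle genes past the filter, in rows by role, on the 6 arrays in columns. Red fills most rows of knockout array 2 and some of wild-type array 1. The named pair at the top follows genotype instead, as its choice by the difference between the genotypes implies.

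In the thin filament all 8 members passed the filter. Acta1, the actin of skeletal muscle, gave 473, 119 and 48.4 in wild type against 42.5, 1325 and 55.2 in knockout. It was 26.2-fold above the other knockout arrays on knockout array 2, and 6.12-fold above the other wild-type arrays on wild-type array 1. Fast troponin C (Tnnc2), which binds the calcium, gave 1300, 233 and 222 in wild type against 92.2, 4899 and 197 in knockout, a 34.8-fold excess on knockout array 2 and a 5.63-fold one on wild-type array 1. Fast troponin T (Tnnt3), which holds the complex on tropomyosin, gave 115, 50.5 and 38.6 and then 18.8, 1076 and 51.3, and its other probe past the filter was likewise highest on knockout array 2. The inhibitory subunit of fast fibres, Tnni2, gave 801, 506 and 528 in wild type against 444, 4630 and 492 in knockout. It thus kept a sizeable signal on the 5 other arrays. The slow subunits behaved otherwise. Slow troponin C (Tnnc1) gave 481, 115 and 42.8 in wild type against 51.0, 38.0 and 44.2 in knockout, so that it was highest on wild-type array 1 and lowest on knockout array 2. Slow troponin I (Tnni1) was dim, at 35.3, 15.8 and 11.4 and then 7.05, 23.2 and 26.3, and passed the filter on 3 arrays only. Slow troponin T (Tnnt1) was level at 1681, 2044 and 1812 in wild type against 1729, 1969 and 1487 in knockout, and nebulin (Neb), the ruler of the thin filament, ranged from 153 to 290, highest on knockout array 2.

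The thick filament and its M band had 8 of 11 members past the filter, and myosin heavy chains set knockout array 2 apart most clearly. Myh4, the heavy chain of the fastest fibres, gave 25.3, 77.3 and 24.6 in wild type against 26.05, 1144 and 34.8 in knockout, 36.4-fold above the other knockout arrays on array 2. Myh1 and Myh2, further fast heavy chains, missed the filter because each exceeded the 40th percentile on 2 arrays only, but on knockout array 2 both stood far above the other 5. Myh1 gave 8.84, 8.37 and 8.05 in wild type, with 3.76, 1735 and 23.3 in knockout. Myh2 gave 6.03, 3.46 and 4.09 in wild type, with 4.96, 523 and 18.4 in knockout. Myh7, the slow heavy chain, was dim and nearly level at 46.1, 41.1 and 45.4 in wild type against 58.2, 46.6 and 32.8 in knockout. The heavy chain genes are close copies of each other, and how far their probes tell them apart was not tested. The fast light chain Myl1 gave 182, 122 and 138 in wild type against 171, 2239 and 244 in knockout, with a difference of 1.79 ± 0.95 (SE), and the groups overlapped by its dimmer second probe. Mylpf, the regulatory light chain of fast fibres, missed the filter with 12.8, 13.4 and 18.5 in wild type and then 18.04, 22.8 and 9.75 in knockout, low on all 6 arrays.

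Among the proteins that bind the thick filament, Mybpc1 was the member closest to the pattern of Dupd1 and Tmod4. This myosin-binding protein C, the slow form, gave 2237, 1990 and 2266 in wild type against 2268, 2996 and 2635 in knockout. Scaled, the wild-type mean was 1.69 ± 0.10 (SD, n = 3) and the knockout mean 2.12 ± 0.20 (SD, n = 3), which differ by 0.43 ± 0.12 (SE) with a limma adjusted p of 0.728. Its second probe differed by 0.36. The fast form, Mybpc2, gave 184, 187 and 161 in wild type against 146, 364 and 143 in knockout, high on knockout array 2 alone. Titin (Ttn), the spring that tethers the thick filament to the Z disc, gave 384, 141 and 121 and then 133, 496 and 166, high on wild-type array 1 and knockout array 2. Its 3 probes past the filter differed between −3.04 and 2.51, and the lowest of these belonged to a dim probe with 26.4, 30.3 and 59.5 in wild type and then 4.26, 3.89 and 3.82 in knockout. Of the M-band proteins, Myom2 ranged from 41.6 to 225 and was highest on knockout array 2, whereas Myom1, at 406, 758 and 607 in wild type against 628, 537 and 415 in knockout, was not.

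All 8 members of the Z disc group passed. Myotilin (Myot) gave the widest departure of wild-type array 1, with 597 against 26.8 and 44.2 on the other wild-type arrays, 17.1-fold, and 51.1, 141 and 48.5 in knockout. Myoz1, which tethers calcineurin at the Z disc of fast fibres, ranged from 24.5 to 316 and was 10.8-fold above the other knockout arrays on knockout array 2. Actn3, the alpha-actinin of fast fibres, gave 60.6, 50.5 and 52.6 in wild type against 46.5, 129 and 46.5 in knockout. Actn2, its relative in all fibres, gave 284, 236 and 194 and then 204, 278 and 183, a difference of 0.04. Its dimmer second probe past the filter, at 21.9 to 45.0, differed by 0.69. Telethonin (Tcap), which caps titin, gave 4538, 1484 and 3364 in wild type against 3531, 6962 and 4864 in knockout, with its lowest value on wild-type array 2. The groups overlapped, and its difference of 0.95 ± 0.45 (SE) had a limma adjusted p of 0.866. Ldb3, desmin (Des) and the actin-binding protein Xirp1 ranged from 134 to 277, from 105 to 250 and from 90.05 to 139.

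For calcium release and uptake, 5 of 6 members passed. Atp2a1, the calcium pump of fast fibres, gave 179, 145 and 144 in wild type against 96.1, 358 and 118 in knockout. Cacna1s, the voltage sensor of the transverse tubule, gave 173, 310 and 304 and then 182, 473 and 286. Both were highest on knockout array 2, as were Ryr1, the release channel, at 73.2 to 191, and triadin (Trdn), its partner, at 13.9 to 76.8. The channel subunit Cacng1, at 23.4 to 52.4, was highest on wild-type array 2. Calsequestrin 1 (Casq1), the calcium store of fast fibres, missed the filter with 2 arrays above the 40th percentile, 25.0 on wild-type array 1 and 39.2 on knockout array 2.

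The 4 energy genes split between strong and slight array differences. Muscle creatine kinase (Ckm) was near the lowest signals of the arrays on wild-type array 3 (3.58) and knockout array 3 (3.41), and at 213 on knockout array 2 and 91.5 on wild-type array 1. It passed the filter on 3 arrays, the fewest allowed. Myoglobin (Mb), the oxygen store of oxidative fibres and the heart, gave 787, 193 and 57.2 in wild type against 90.5, 818 and 128 in knockout, nearly equal on wild-type array 1 and knockout array 2. Eno3, the muscle enolase, gave 3284, 3148 and 3300 in wild type against 2954, 4465 and 3008 in knockout. Pygm, the glycogen phosphorylase of muscle, gave 1402, 1250 and 1387 and then 1272, 1633 and 1359. Its scaled signals were apart by genotype only narrowly, with a difference of 0.22 ± 0.11 (SE) and a limma adjusted p of 0.866.

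Fast and slow fibre genes were then compared per array. Of 11 fast and 5 slow members, 8 and 5 passed. All 8 fast members were highest on knockout array 2, where 15.6% of all features were highest, whereas the 5 slow members were spread, with 2 highest on wild-type array 1, 2 on knockout array 2 and 1 on knockout array 1. These counts are too small to set against the shares of all features given above. The mean centred signal of the fast members was −0.01, −0.47 and −0.72 in wild type against −0.98, 2.60 and −0.42 in knockout, and that of the slow members 0.62, −0.01 and −0.36 in wild type against −0.26, 0.03 and −0.02 in knockout. Fast minus slow was thus −0.63, −0.46 and −0.36 in wild type against −0.72, 2.57 and −0.40 in knockout, so that knockout array 2 alone departed from a narrow band. The mean of the index was −0.48 ± 0.14 for wild type (SD, n = 3) and 0.48 ± 1.81 for knockout (SD, n = 3). The difference of 0.97 became −0.09 without knockout array 2 and 1.57 without knockout array 1.

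**Figure D4:**
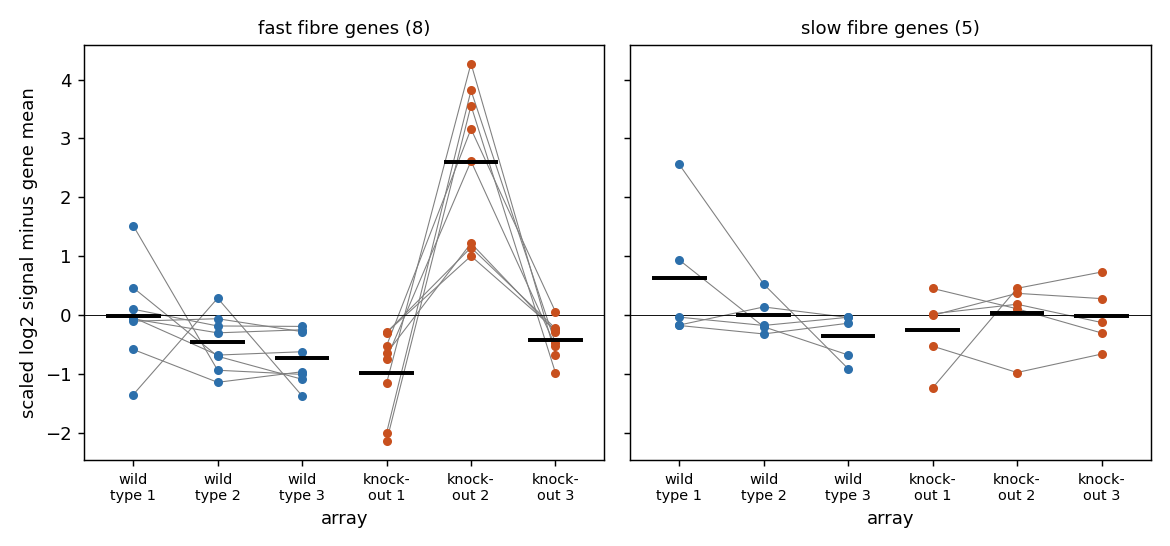
Scaled log2 signal minus the gene's mean over the 6 arrays for the 8 fast and the 5 slow fibre genes past the filter. Points are genes, joined by thin lines within a genotype, and black bars are means, which reach 2.60 for fast genes on knockout array 2 and 0.62 for slow genes on wild-type array 1.

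Genes outside the list showed what else differed on these arrays. Of 24 further skeletal muscle genes on the arrays 18 passed the filter, and limma called 0 (0 also at an unadjusted p under 0.05). Their score was 0.19, −0.27 and −0.14 in wild type against −0.29, 0.59 and −0.08 in knockout, in which the highest array was again knockout array 2. Pgam2, the muscle phosphoglycerate mutase, was 4.54-fold above the other knockout arrays there, and sarcolipin (Sln), which restrains the calcium pump, was 7.73-fold above them and 8.62-fold above the other wild-type arrays on wild-type array 1. Mylk2, Fbxo32 and Pgam2 had the lowest unadjusted p, with differences of 0.43 ± 0.22, 0.12 ± 0.07 and 0.90 ± 0.67 (SE). Myh8, a heavy chain of newborn muscle, gave 1636, 412 and 300.1 in wild type against 226, 6603 and 263 in knockout, and the embryonic Myh3 missed the filter. The activators of the muscle programme Myod1, Myog and Myf5 lay at 3.04 to 4.21 on all arrays, near the lowest signals, and of the 8 genes for satellite cells and myogenic factors Cdh15 alone passed (0.26 ± 0.11, SE). Of 10 genes of the neuromuscular junction 8 passed, and their scores lay between −0.05 and 0.05. The junction gene with the lowest unadjusted p was the acetylcholine receptor subunit Chrnb1, at −0.26 ± 0.10 (SE, limma adjusted p = 0.836).

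Wild-type array 1 also held the highest signals of heart genes. Of 8 cardiac genes 6 passed, and their score was 1.37, 0.13 and −0.44 in wild type against −0.43, −0.44 and −0.18 in knockout. Cardiac actin (Actc1) was 9.02-fold, cardiac troponin I (Tnni3) 5.27-fold and the atrial peptide Nppa 4.55-fold above the other wild-type arrays on wild-type array 1. The ventricular and slow light chains Myl2 and Myl3 were 4.98-fold and 7.85-fold above them, and the atrial light chain Myl7, which missed the filter, gave 226 and 57.2 on wild-type arrays 1 and 2 against 4.70 to 8.07 on the others. Myh6, a heavy chain of the heart, was level at 76.2 to 101.6, and the cardiac factor Nkx2-5 did not exceed 14.6. On knockout array 2 the 6 cardiac genes ranged from 0.69-fold (Tnni3) to 1.403-fold (Actc1) of the other knockout arrays. Cardiac troponin T (Tnnt2), at −1.21 ± 0.34 (SE, limma adjusted p = 0.729), was the cardiac gene with the lowest unadjusted p. It gave 1852, 777 and 838 in wild type against 424, 379 and 448 in knockout. Its groups were thus apart, lower in knockout, as were those of 4.27% of all features. The part of these signals in the slow fibre values of wild-type array 1 was not tested.

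**Figure D5:**
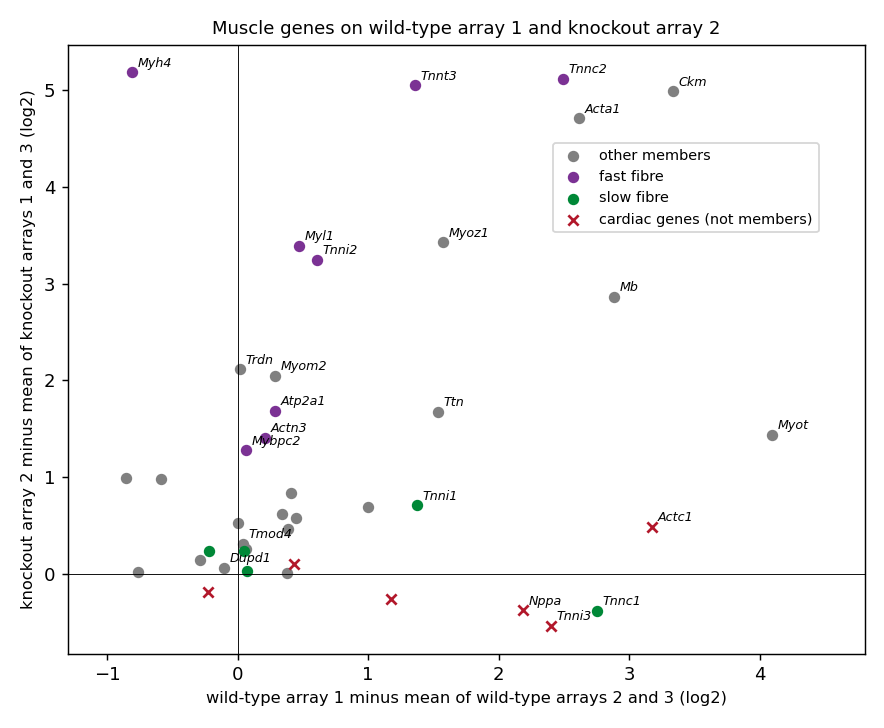
Signal of wild-type array 1 over the mean of the other 2 wild-type arrays (horizontal axis, log2) against that of knockout array 2 over the mean of the other 2 knockout arrays (vertical axis, log2), with 1 point per member past the filter and crosses for 6 cardiac genes. Fast fibre genes rise along the vertical axis, Tnnc1 and most cardiac genes along the horizontal axis, and Dupd1 lies near 0 on both, at −0.10 and 0.06.

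The remaining question was whether Dupd1 and Tmod4 went with the other muscle genes or with genotype. On knockout array 2 Dupd1 stood 1.04-fold and Tmod4 1.24-fold above the other knockout arrays, and on wild-type array 1 they stood at 0.93-fold and 1.03-fold of the other wild-type arrays. Of the sum of squares of Dupd1 over the 6 arrays, 99.1% lay along genotype, as its choice implies, and 5.54% along the muscle score. For Tmod4 these shares were 83.5% and 25.1%. They can add to over the whole, because the score itself differed somewhat between the genotypes. Over the other 33 members, with the member left out of the score, the median shares were 12.4% for genotype and 66.3% for the score, against 14.8% and 10.96% over all features. The share of the score exceeded that of genotype in 26 of the 33, and in 45.8% of all features. The members share arrays and were scored against each other, so these shares are descriptions. With the score as a covariate the difference of Dupd1 was 0.86 instead of 0.87, and that of Tmod4 0.54 instead of 0.58. Without both arrays that stood apart, the differences were 0.81 and 0.50. Choosing the pair by its difference between the genotypes can favour genes with little variation within a genotype. The folds, shares and adjusted differences of the pair may follow in part from that choice. They describe the pair and cannot decide the question. Of the other 33 members Mybpc1 and Pygm had over 50% of their sum of squares along genotype, at 74.0% and 51.6%, against 24.6% and 47.4% along the score.

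Among relatives and neighbours of the 2 genes, those past the filter did not share their difference. Of 6 tropomodulins and leiomodins other than Tmod4, 4 passed, with differences of −0.16 ± 0.11 (Tmod1), 0.05 ± 0.09 (Tmod2), −0.11 ± 0.07 (Tmod3) and 0.04 ± 0.13 (Lmod3), each with its SE. Of 15 atypical dual-specificity phosphatases other than Dupd1, 13 passed, of which limma placed 0 at an unadjusted p under 0.05, with a median difference of 0.03. Dusp27, a gene of this list, was at 0.06 ± 0.07 (SE). Dusp13, the neighbour of Dupd1 on the chromosome, missed the filter, and the neighbours Kat6b and Samd8 were at 0.13 ± 0.09 and 0.15 ± 0.08 (SE). Next to Tmod4, Vps72, Scnm1 and Lysmd1 were at −0.05 ± 0.14, 0.08 ± 0.07 and −0.04 ± 0.08 (SE).

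Some lists of other tissues were ordered by genotype. Brown fat genes had scores of 0.92, 0.19 and 0.67 in wild type against −1.01, −0.29 and −0.48 in knockout over 3 of 4 genes, with Elovl3 under the filter. The size of these scores rested largely on the uncoupling protein Ucp1, at −2.79 ± 0.82 (SE, limma adjusted p = 0.766). It gave 686, 135 and 381 in wild type against 16.9, 95.9 and 47.7 in knockout. Dio2 was at −0.51 ± 0.20 (SE), and Cidea, at −0.27 ± 0.15 (SE), overlapped between the genotypes. White fat genes had scores of 0.15, 0.16 and 0.22 in wild type against −0.29, −0.11 and −0.15 in knockout over 5 of 6 genes on the arrays, with leptin (Lep) under the filter. This order rested on the lipid droplet proteins Plin1, at −0.81 ± 0.26, and Cidec, at −0.73 ± 0.23 (SE, limma adjusted p = 0.792 for both), whereas Fabp4, at −0.26 ± 0.18 (SE), overlapped between the genotypes and adiponectin (Adipoq) and resistin (Retn) differed by 0.02 ± 0.13 and −0.01 ± 0.15 (SE). The scores of all 3 wild-type arrays lay above those of all 3 knockout arrays in both lists, opposite to Dupd1 and Tmod4. Tendon genes did the same at smaller size, with scores of 0.11, 0.06 and 0.03 in wild type against −0.16, −0.02 and −0.01 in knockout. Their largest difference was that of Tnmd, dim at 35.7 to 69.8, with −0.40 ± 0.16 (SE, limma adjusted p = 0.866). Scx, Thbs4, Comp and Mkx were at −0.13, −0.09, −0.05 and 0.01, and each of the 5 tendon genes overlapped between the genotypes. Smooth muscle genes, at −0.16 to 0.26, had scores that overlapped between the genotypes. The cochlear genes scored −0.01, −0.43 and 0.05 in wild type against 0.16, 0.02 and 0.22 in knockout, lowest on wild-type array 2. All 10 past the filter had a difference above 0, where 60.7% of all features did. limma placed 2 of them, Slc26a5 and Ocm, under an unadjusted p of 0.05, where 3.04% of all features were higher, and 0 under an adjusted one. Slc26a5 was dim, at raw signals of 16.8 to 44.7, and exceeded the 40th percentile on 5 arrays. The part of these tissues in the differences of Dupd1 and Tmod4 was not tested.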

How the data were processed

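RNA of 6 cochlear samples was labelled with Cy3. Arrays were read with Agilent Feature Extraction 10.7, per the submitters' processing notes. The deposited files hold a raw linear intensity for each probe on each array and a matrix of log2 values; each matrix column equalled the log2 raw signal of its array minus a constant, to within 1e-05. Its columns had medians of −3.58, −3.67 and −3.67 for wild type and −3.55, −3.69 and −3.68 for knockout. The exported signal column and any background subtraction are not stated in the labels, and no detection or saturation marks were used. The arrays' number limits the precision.

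Log2 signals, minus the log2 75th percentile of each array, were fitted with limma 3.58.1 in R 4.3.3 (lmFit, eBayes, without covariates), with Benjamini-Hochberg adjustment over all features. Probe names came from the platform's table, in which 30625 of 55676 probes had 1 gene, 25051 none and 0 several. The fit was tested on simulated data. Noise there was independent between features, unlike the shifts of many muscle genes on the same array seen here. Scores are means of centred signals and carry no test. All members were accounted for; values in every array were given for Dupd1, Tmod4, the 2 brightest members of each other role, fast and slow fibre genes and members whose groups were apart, and of other lists the 3 genes or fewer with the lowest unadjusted p. Acta1, Myot, Ckm, Mb, Myh1, Myh2, Adipoq, Retn and the genes named for wild-type array 1 or knockout array 2 were added after their values were seen. Members, lists and tests were chosen with earlier results of these data known. Replicate numbers were not used to pair the arrays, because the labels do not say that they mark a shared day or batch. Same-numbered arrays correlated at −0.13, −0.04 and −0.14 in their deviations from the group means, which with 3 arrays per group cannot settle it.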

Additional observations from a re-analysis of the deposited data

How the results depend on the processing

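limma called 0 of the members other than Dupd1 and Tmod4 under every alternative. Their number at an unadjusted p under 0.05 was 1 over all arrays and 1 to 7 over the alternatives. It was 7 with array weights, 4 with the muscle score as a covariate and 4 without knockout array 1. Array weights raised the count over all 27189 features as well, to 2125 with a positive and 1302 with a negative difference, from 827 and 723. Those counts were 761 and 683 with the covariate, and 692 and 680 of 26913 features without knockout array 1. With the replicate number as a block (replicate block) 0 members were called, and the differences of Dupd1 and Tmod4 stayed at 0.87 and 0.58. With each array left out in turn, the difference ran from 0.83 to 0.89 for Dupd1 and from 0.48 to 0.68 for Tmod4, and with the muscle score as a covariate from 0.81 to 0.89 and from 0.49 to 0.62. Without both wild-type array 1 and knockout array 2, Dupd1 was at 0.81, with and without the covariate. The median of the other members ran from −0.11 to 0.56, the difference of the muscle score from −0.24 to 0.65 and that of fast minus slow from −0.09 to 1.57, each lowest without knockout array 2 and highest without knockout array 1. With array weights the median was 0.69, 4 of 33 members moved by more than 1 SD between arrays (Acta1 to 2.59, Ckm to 3.03, Mb to 2.11 and Actn2 to 0.33) and 5 turned their sign (Tnni1, Myom1, Myot, Des and Trdn). Scaling, the deposited matrix, the filter, the probe rule and the composition of the scores moved no value by more than 1 SD between arrays, with 1 exception. Actn2 moved from 0.04 to 0.36 when probes of a gene were averaged. Of 31 members, 13 turned their sign without knockout array 2 and 11 of 31 without both arrays. Normexp correction and blocks by slide or date of scan were not run, because the tables used have no background, slide or date columns. Signals near the lowest of an array, such as those of Ckm on 2 arrays, have no dependable order.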
